A study of Mus musculus with 20 samples.

Results

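The genes described here are 38 genes of autophagy and of the lysosome, taken as a list of names from 21887 protein-coding mouse genes and followed through the H3K27ac signal at their ends in hepatocytes of young and old mice. H3K27ac is histone H3 acetylated at lysine 27, a mark of active promoters and enhancers, and it was measured by chromatin immunoprecipitation and sequencing. A region was assigned to a gene when it lay within 1 kb of either end of the gene's RefSeq span, and the scaled tags of all such regions were summed in each library. All 38 genes had a region in at least 1 library, 35 had one in all 10 libraries and entered the test, and Tfeb, Becn1 and Pik3c3 did not. In all, 7450 genes had a gene-end region in every library.

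The young group held 5 libraries of hepatocytes from C57BL/6N mice aged 5 months, and the old group 5 libraries of hepatocytes from C57BL/6J mice aged 23 months. The cells of both groups had been isolated by a perfusion in 2 steps, human chromatin had been added to 5%, and the same H3K27ac antibody (Abcam ab4729) was used throughout. Input samples are listed for both ages and entered here only through the input value that each region carries. Age and substrain coincide and cannot be told apart in any comparison. The labels do not state that each library is a different mouse, so a p-value here covers the spread between libraries, part of which may be technical.

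Autophagy encloses cytoplasm, protein aggregates or damaged organelles in a double membrane, the autophagosome, which fuses with lysosomes whose acid hydrolases degrade the content. Assembly passes from the ULK1 kinase complex to the lipid kinase complex of VPS34 and Beclin, whose lipid product recruits WIPI proteins, and then to the enzymes that attach LC3 and GABARAP proteins to the growing membrane. In the liver this route supplies amino acids, lipids and glucose in fasting and removes lipid droplets, and the transcription factors TFEB and TFE3 activate many of its genes through E-box elements in their promoters.

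The promoters of 6 members are shown because they hold the core of the element that TFEB and TFE3 bind, and because they include Gaa and Atg5, whose values are given in detail further on. Each line gives 100 bases, 5′ to 3′ on the strand of the gene, from RefSeq on GRCm38.p6, with every CACGTG in capitals.
Gaa, chr11:119267776-119267875, plus strand: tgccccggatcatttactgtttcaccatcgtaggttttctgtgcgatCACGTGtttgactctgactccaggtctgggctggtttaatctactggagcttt
Atg5, chr10:44268239-44268338, plus strand: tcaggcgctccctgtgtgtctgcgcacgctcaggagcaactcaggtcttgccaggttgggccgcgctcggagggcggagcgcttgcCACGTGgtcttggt
Lamp1, chr8:13159053-13159152, plus strand: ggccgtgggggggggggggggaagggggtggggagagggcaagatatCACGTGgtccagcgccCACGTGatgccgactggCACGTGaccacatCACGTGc
Ctsd, chr7:142387873-142387972, minus strand: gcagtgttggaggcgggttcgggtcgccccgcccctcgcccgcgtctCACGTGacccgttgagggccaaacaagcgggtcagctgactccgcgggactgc
Ctsa, chr2:164833673-164833772, plus strand: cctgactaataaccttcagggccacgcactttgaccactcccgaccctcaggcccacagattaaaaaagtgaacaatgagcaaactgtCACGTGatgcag
Atg3, chr16:45158711-45158810, plus strand: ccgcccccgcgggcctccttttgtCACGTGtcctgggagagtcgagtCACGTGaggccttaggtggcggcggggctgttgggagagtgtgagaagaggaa

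The RefSeq promoter table, which gives 250 bases before to 50 bases after an annotated start, matched 29 of the 38 members with 34 windows. The word CACGTG, which reads the same on both strands, occurred in 9 of these 34 windows (26.5%), against 7.8% of all 21263 windows of protein-coding genes and 10.5% of the 7615 windows of tested genes. Besides the genes printed above, Atg7, Atg14 and Ctsl held it. The window of Atg7 is that of a start at 114671096, inside the gene, whose lower end is at 114643127. The H3K27ac regions assigned at that end reach no further than 114649738, so this copy lies outside them. Lamp1, which encodes the main glycoprotein of the lysosomal membrane, had 4 copies of CACGTG. The longer word TCACGTGA, which contains the first, was found at Atg3, Ctsa and Ctsd, in 8.8% of member windows and 1.2% of all windows. Among genes outside the list, CACGTG was in 32.4% of the windows of other lysosomal enzymes and membrane proteins, in 23.5% of those of other V-ATPase subunits and in 5.4% of those of other autophagy genes. These are matches of letters in a window of 300 bases and not measured binding sites.

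Libraries held 6295930 to 15544145 tags and 21213 to 30195 regions. The share of tags in regions was 34.63% to 48.23% in young and 24.53% to 35.84% in old libraries. The fragment length was 620 bp in young replicate 5 and 414 to 444 bp in the others. Of 8 hepatocyte marker genes, 7 had gene-end regions in all 10 libraries. Called in none were 7 of 8 Kupffer cell and macrophage markers (including Clec4f, Vsig4 and Adgre1) and 5 of 6 stellate markers. So were 4 of 5 cholangiocyte, 4 of 5 lymphocyte and 3 of 6 sinusoidal endothelial markers. Cd68, the other macrophage marker, was called in all 10 libraries, with means of 376.2 scaled tags in young and 245.9 in old. Reln (stellate) was called in 4 young and 5 old libraries, Cd79a (lymphocyte) in 3 and 5, and Lyve1 (endothelial) in 4 and 4. Spp1 (cholangiocyte) was called in 2 and 2, and Stab2 and Clec4g (endothelial) in 1 old library each. The hepatocyte markers' summed scaled tags were 5093.5 to 6563.6 in young and 2021.9 to 4616.5 in old libraries, so the ages did not overlap. Apoa1 had the largest part, with means of 2462 and 1587. Of all tested genes, 93.5% had the lower mean in old libraries, and 12% had every old value below every young one. After centring, all 7 differences in these markers were negative, with a median of −0.39 on the log2 scale, where 52.2% of all tested genes were positive. Of these markers 0 passed the test in limma, edgeR or DESeq2. In limma 3 (42.9%) had an unadjusted p under 0.05, beside 13.2% of all tested genes. The part of this difference in the results below was not tested. In these bulk samples fewer cells of a type and less signal per cell cannot be told apart.

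Young replicates 1 and 3 stood apart at gene ends, and their low values touched 5 members. After centring, young replicate 1 was the lowest young library for 27% of tested genes and the highest for 38.3%. Young replicate 3 was the lowest for 20% and the highest for 22%. Among 9456 genes called in at least 8 libraries, 19.1% were more than 2-fold below their median library or not called in young replicate 1 and 17.8% in young replicate 3. The share was 8.25% in old replicate 5 and 0.74% to 2.29% in the other 7 libraries. These 2 low sets overlapped in 909 genes, which were 50.2% of the set of replicate 1 and 54% of that of replicate 3. Tfeb, Becn1 and Atg4b were low in both, and Ulk2 and Map1lc3a in replicate 1. At the median gene the input made up 12.8% of the signal in young replicate 1, 11.1% in young replicate 3, 11.2% in young replicate 5 and 4.58% to 9.65% elsewhere. A region was called only at 4-fold over input, and the part of the input in these low values was not tested.

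**Figure D1:**
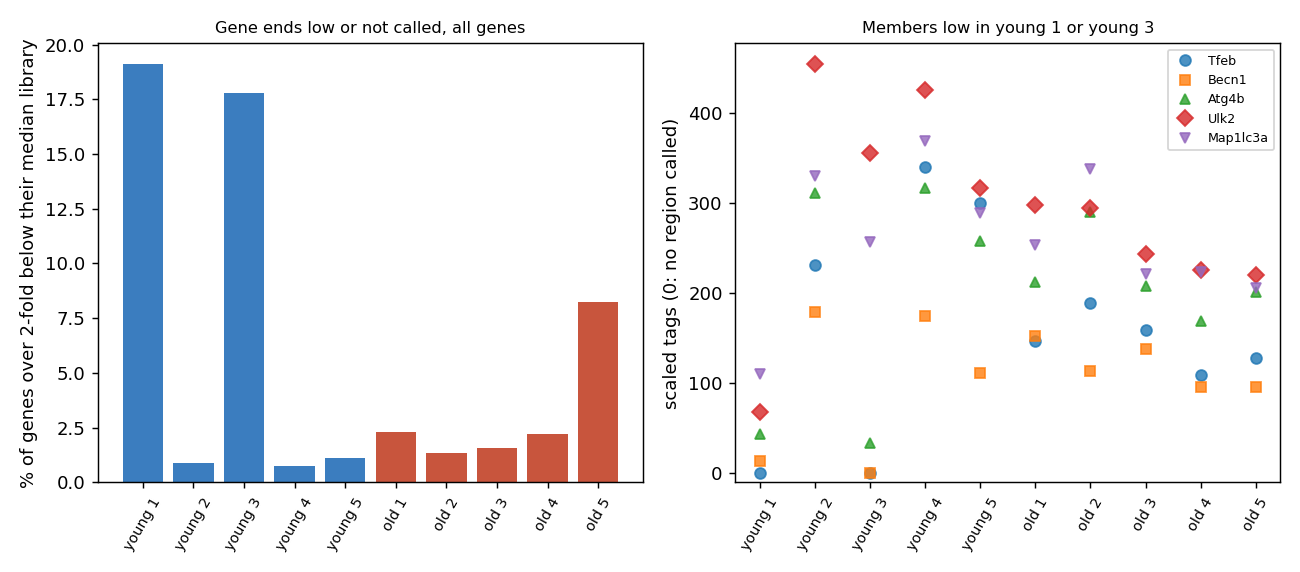
Left, the percentage of 9456 genes whose centred gene-end signal was more than 2-fold below the gene's median over the libraries or not called, by library (blue young, red old). Right, scaled tags at the gene ends of the 5 members that were low in young replicate 1 or 3, by library, with 0 for a library without a called region. Young replicates 1 and 3 have the highest bars, 19.1% and 17.8%.

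None of the 35 tested members differed between old and young hepatocytes past the threshold. Gaa, the lysosomal enzyme that degrades glycogen, and Npc2, which binds cholesterol released in the lysosome, had the smallest p-values among members with positive differences relative to the median gene, and Atg5, part of the conjugation machinery, the smallest among those with negative ones. In limma with Benjamini-Hochberg adjustment at 0.05, after centring each library on its median tested gene, 0 of 35 members passed, against 5 of 7450 genes (0.0671%). In edgeR with TMM 0 members passed as well, against 9 of all tested genes (0.121%). In DESeq2 1 member passed, Gaa, against 152 of all tested genes (2.04%). At an unadjusted p under 0.05 there were 3 members, or 8.6%, against 13.2% of all tested genes. The differences of the members were positive for 17 and negative for 18, with a median of −0.05, where all tested genes had 52.2% positive and a median of 0.01. Centred values of the ages did not overlap for 2 members, Gaa and Npc2, against 3.57% of all genes. The median spread between libraries of an age was 0.24 (SD on the log2 scale) for the members and 0.24 for all genes.

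Before centring nearly every gene had less scaled signal in old libraries, and the members followed. The median old over young ratio of means was 0.749 for the 35 members and 0.769 for all tested genes, of which 93.5% were lower in old libraries. Among members 33 had the lower mean in old libraries, from 0.562-fold at Atg7 upwards, and Atg4b and Npc2 had the higher. Scaled tags of the ages did not overlap for 9 members, all lower in old (Atg13, Wipi1, Atg3, Atg5, Atg7, Atg16l1, Gabarapl1, Nbr1 and Ctsb), which is 25.7%, beside 12.1% of all tested genes in either direction and 12% lower in old. The median log2 difference of all tested genes before centring was −0.36 for signal, −0.125 for called length and −0.218 for tags per kb. Unless a sentence says otherwise, log2 differences are taken after centring each library on its median tested gene for the same measure. Those of edgeR and DESeq2 rest on the scaling of these tools. Without centring, 7 members were past the threshold and lower in old libraries, and 881 of all genes (11.8%) passed, 876 of them lower in old. They were Wipi1, Atg3, Atg5, Gabarapl1, Nbr1, Ctsb and Atp6v1h, with adjusted p (limma) from 0.0392 to 0.0499. A total change in acetylation cannot be derived from these values, which are scaled to each library's own tags and not to the added human chromatin.

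**Figure D2:**
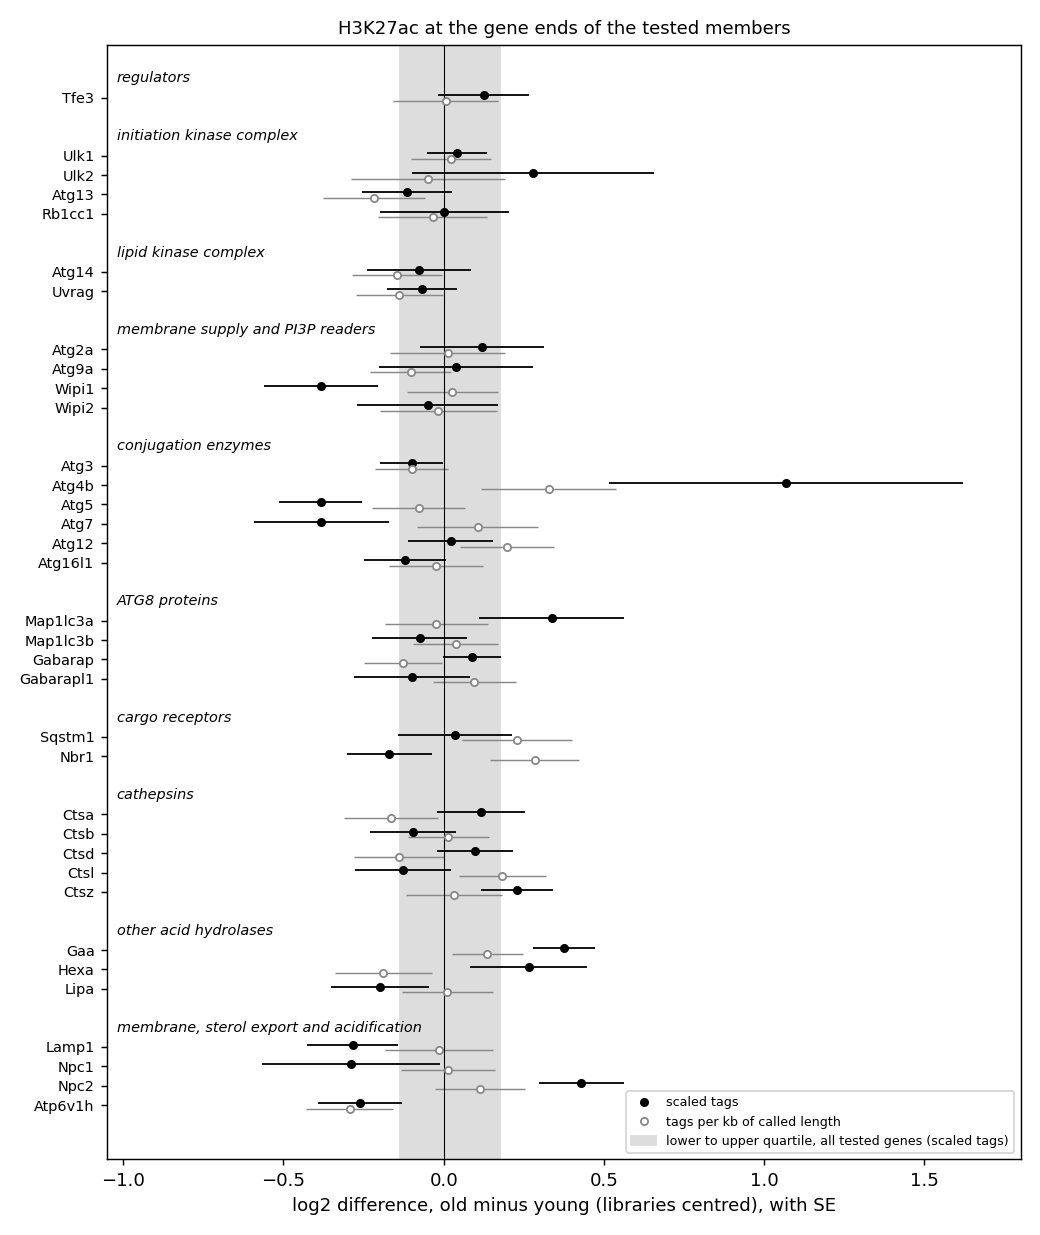
Log2 difference, old minus young, of centred scaled tags (black) and of tags per kb of called length (open) at the gene ends of the 35 tested members, with standard errors, ordered by role. The grey band spans the lower to the upper quartile of all tested genes, −0.14 to 0.18. Atg4b, at 1.07, lies outside the range of the other members and has the longest error bar.

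The members were also set beside genes of like level. The tested genes were divided into 5 equal groups by mean scaled tags. The 13 members of the fourth group (317.6 to 467.8 tags) had a median difference of −0.10 against 0.00 for all its genes, and the 8 of the third group (225.4 to 317.5 tags) −0.06 against 0.01. In the second group (147.5 to 225.3 tags) 8 members had a median of 0.02 against 0.04. The highest group, above 468 tags, held Ulk1, Sqstm1, Gabarap, Nbr1 and Gaa, with a median of 0.04 against −0.03. The lowest group held only Wipi1, at −0.38 against a group median of 0.08.

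Among the regulators, Tfeb had no called region at its start in 2 young libraries. Tfeb (chromosome 17, 47737037 to 47792416) encodes the factor that moves to the nucleus when mTORC1 is inactive. Its gene-end signal was 0, 231.5, 0, 340 and 300.1 scaled tags in young replicates 1 to 5, and 146.9, 189.4, 159.1, 109.7 and 128.7 in old replicates 1 to 5. The 2 uncalled libraries were young replicates 1 and 3, and the 3 young libraries with a call lay above all old ones. Region calls in 3 of 5 young and 5 of 5 old libraries gave a two-sided Fisher exact p of 0.4444 (adjusted 1). Of 4303 genes called in 1 to 9 libraries 0 passed the adjusted test and 23 had an unadjusted p under 0.05. The smallest Fisher exact p was 0.0079. With 5 libraries per age the adjusted test could therefore hardly call a gene, and it decides nothing about Tfeb. An inner block of regions, 22602 to 27620 bp from the same end, was called in all 10 libraries, with 416 ± 120.8 scaled tags in young and 320.2 ± 61.8 in old (SD, n = 5 each). Over the whole gene the log2 difference was −0.03, with an adjusted p of 0.954 in limma.

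Tfe3 (chromosome X, 7762530 to 7775202), the close relative of Tfeb, was called everywhere. Its scaled tags were 126.3, 218.3, 140.3, 235.6 and 168.9 in young and 150.9, 151.8, 147.8, 177.1 and 107.2 in old libraries. The old values lay within or just below the young range. The centred difference was 0.13 (SE 0.14, limma adjusted p = 0.731), and −0.25 without centring.

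In the initiation complex, which starts autophagosome formation, all 4 members were tested and 0 passed. Ulk1 (chromosome 5, 110784489 to 110810120), the kinase itself, had 512.4, 696.9, 476.8, 560.5 and 466.4 scaled tags in young and 471.2, 467.1, 413.1, 407.2 and 376.4 in old libraries. The highest old value exceeded only the lowest young one. Its centred difference was 0.04 (SE 0.09, limma adjusted p = 0.878), with −0.33 before centring. Ulk2, its paralog, named after its values were seen, had 67.9 scaled tags in young replicate 1 against 316.5 to 455 in the other young and 220 to 298.4 in old libraries. Its difference of 0.28 (limma adjusted p = 0.782) became −0.16 without that library. Atg13, a regulatory subunit, had −0.12 and Rb1cc1, the scaffold also called FIP200, 0.00.

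The lipid kinase complex makes the phosphoinositide that marks the forming membrane. Becn1 (chromosome 11, 101288258 to 101302286), the Beclin subunit, had 13.6, 179.7, 0, 175.3 and 111 scaled tags in young and 152.8, 113.7, 138.3, 96.5 and 96.1 in old libraries. As with Tfeb, young replicates 1 and 3 were the low ones, and the other young libraries overlapped the old. Calls at either end, in 4 young and 5 old libraries, gave a Fisher exact p of 1. In young replicate 1 the only region, of 13.6 scaled tags, lay at the lower end of the gene (101287800 to 101288300). At the upper end regions were called in young replicates 2, 4 and 5 and in all 5 old libraries. Calls at that end alone were not tested. Atg14, which directs the complex to autophagosomes, had a difference of −0.08, and Uvrag, which directs it to endosomes, −0.07. Pik3c3 encodes the catalytic subunit VPS34 and is described last among the members.

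Among the genes of membrane supply and lipid reading, Wipi1 had the largest difference. Wipi1 (chromosome 11, 109573521 to 109611389) encodes a reader of the lipid made by VPS34. It had 92.9, 160.7, 155.3, 107 and 103.6 scaled tags in young and 81.1, 75.1, 71.1, 67.3 and 61.9 in old libraries. Every young library lay above every old one, by little at young replicate 1. After centring the difference was −0.38 (SE 0.18, limma adjusted p = 0.386), and −0.26 without young replicates 1 and 3. In tags per kb it was 0.03. The called length was 792 bp in young replicate 1, 1325 to 1447 bp in the other young and 758 to 996 bp in old libraries. Atg9a, the lipid scramblase of the seed vesicles, had 0.04, Atg2a, a lipid transfer protein, 0.12, and Wipi2, which recruits the conjugation enzymes, −0.05.

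The 6 conjugation enzymes spanned the widest range of any role, from Atg5 at −0.38 to Atg4b at 1.07. Atg5 (chromosome 10, 44268322 to 44364299) encodes the partner of Atg12 in the ligase for LC3. It had 202.7, 235, 201.6, 303.9 and 175.3 scaled tags in young and 162.8, 150.8, 146.5, 102.9 and 97.7 in old libraries, a ratio of means of 0.59. The ages did not overlap before centring and did after it. The centred difference was −0.38 (SE 0.13, unadjusted p = 0.0122 and adjusted p = 0.255 in limma), and −0.44 to −0.33 with any 1 library left out. Without centring it was −0.76, with an adjusted p of 0.0428.

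Atg4b, the protease that prepares LC3 for attachment, was named after its values were seen. Its scaled tags were 44.2, 311, 34.1, 317 and 258 in young and 212.7, 290.4, 208.1, 169.7 and 201.7 in old libraries. Young replicates 1 and 3 were far below the rest, and the other young libraries overlapped the old. The centred difference of 1.07 (SE 0.55, limma adjusted p = 0.422) became 0.04 without those 2 libraries. Its region also serves as that of the neighbouring gene Thap4. Atg7, which activates the conjugated proteins, had −0.38 (limma adjusted p = 0.451), and Atg3, Atg12 and Atg16l1 lay between −0.12 and 0.02.

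Of the ATG8 proteins, which coat the autophagosome, 0 of 4 passed. Map1lc3b (chromosome 8, 121590438 to 121598760), the LC3 most used as a marker of autophagosomes, had 240.1, 378.4, 283.3, 352.5 and 262.2 scaled tags in young and 282.4, 320.9, 183.6, 208.4 and 142.9 in old libraries. Old replicates 3, 4 and 5 lay below all young libraries, and the other 2 old libraries lay within the young range. Relative to the median gene the difference was −0.08 (SE 0.15, limma adjusted p = 0.855), and −0.45 without centring. Map1lc3a had a difference of 0.34, which was 0.10 without young replicate 1, where it had 110.4 scaled tags against 256.8 to 369.5 in the other young libraries. Gabarap had 0.09 and Gabarapl1 −0.10. Regions were called at both ends of Gabarap in all 10 libraries, and were also assigned to the neighbouring genes Phf23 and Ctdnep1. The region at its far end was the stronger, with 559.2 scaled tags against 273.6 at its start in young replicate 2.

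The cargo receptors tie ubiquitinated cargo to LC3. Sqstm1 (chromosome 11, 50200152 to 50210820), which encodes p62, had 1071.2, 1533.1, 856.1, 795.5 and 693.2 scaled tags in young and 905.2, 803.8, 747, 673.3 and 651.2 in old libraries. Young replicates 1 and 2 exceeded every old library, and the other young libraries overlapped the old. Centring gave a difference of 0.04 (SE 0.18, limma adjusted p = 0.952), but −0.34 without centring, and −0.02 in edgeR. In these regions, also assigned to the neighbouring gene Mrnip, the called length was 17858 bp in young replicate 2, 5661 to 7461 bp in the other young and 5242 to 8600 bp in old libraries (limma adjusted p = 0.875). Nbr1, the other receptor, had −0.17 in signal and 0.28 in tags per kb.

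Among the cathepsins, the lysosomal proteases, 3 of 5 differences were positive and 0 passed. Ctsd (chromosome 7, 142375910 to 142387827), an aspartyl protease, had 275.7, 470.5, 386.9, 499.5 and 447.8 scaled tags in young and 356.2, 350.3, 435.1, 287.4 and 274 in old libraries. Young replicate 1 was as low as the lowest old libraries. Ctsd had a centred difference of 0.10 (SE 0.12, limma adjusted p = 0.748), and −0.28 without centring. Ctsz (chromosome 2, 174427494 to 174439039), a carboxypeptidase, had 259.3, 366.3, 359.6, 305.9 and 268.9 in young and 283.8, 298, 338.9, 256.1 and 229.5 in old libraries. The ranges overlapped, and the difference was 0.23 (SE 0.11, limma adjusted p = 0.41), or −0.15 without centring. Ctsa, which protects other hydrolases, had 0.12, and the cysteine proteases Ctsb and Ctsl had −0.10 and −0.13.

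Gaa had the smallest p-value of all members. Gaa (chromosome 11, 119267963 to 119285458) encodes acid alpha-glucosidase, whose loss causes Pompe disease. Its gene-end signal was 334.1, 577.6, 511.5, 546.7 and 467.7 scaled tags in young and 491.1, 559, 555.8, 424.1 and 390.7 in old libraries. The scaled tags overlapped, and only after centring did all old libraries lie above all young ones. The means were 487.5 ± 95.03 and 484.1 ± 76.03 (SD, n = 5 each), a ratio of 0.993 against the ratio of 0.769 at the median gene. The centred difference was 0.38 (SE 0.10, unadjusted p = 0.00242 and adjusted p = 0.17 in limma), 0.31 to 0.43 with any 1 library left out and 0.00 without centring. DESeq2 gave 0.36 with an adjusted p of 0.0498, where 2.04% of all genes passed, and edgeR an adjusted p of 0.217. In tags per kb the difference was 0.14 (limma adjusted p = 0.761). Of the other hydrolases, Hexa, a subunit of the enzyme that degrades gangliosides, had 0.27, and Lipa, the lysosomal acid lipase, −0.20.

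Npc2 and Npc1 hand cholesterol from the lysosomal lumen to its membrane, and their differences had opposite signs. Npc2 (chromosome 12, 84754559 to 84773112) had 99.7, 199.3, 156, 201.5 and 147 scaled tags in young and 173.5, 190.9, 189.3, 156.4 and 112.8 in old libraries. Young replicate 1 was the lowest of all, and the centred values of the ages did not overlap. The difference was 0.43 (SE 0.13, unadjusted p = 0.00783 and adjusted p = 0.24 in limma), 0.33 without young replicate 1 and 0.05 without centring. In tags per kb it was 0.11. The regions were also assigned to the neighbouring gene Isca2. Npc1 had −0.29 (SE 0.28, limma adjusted p = 0.675). Whether Npc1 and Npc2 differ from each other was not tested.

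Lamp1 (chromosome 8, 13159161 to 13175338) had 310.8, 532.1, 443.4, 499.5 and 374.4 scaled tags in young and 350.2, 335.6, 312.5, 175 and 215.2 in old libraries. Old replicates 4 and 5 lay below all young libraries, and young replicate 1 was the only young library within the old range. The centred difference was −0.28 (SE 0.14, limma adjusted p = 0.414), and −0.66 without centring (limma adjusted p = 0.0616). Atp6v1h, a subunit of the proton pump that acidifies the lysosome, had −0.26 in signal and −0.29 in tags per kb, the latter with an unadjusted p of 0.0445 and an adjusted p of 0.572 in limma.

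**Figure D3:**
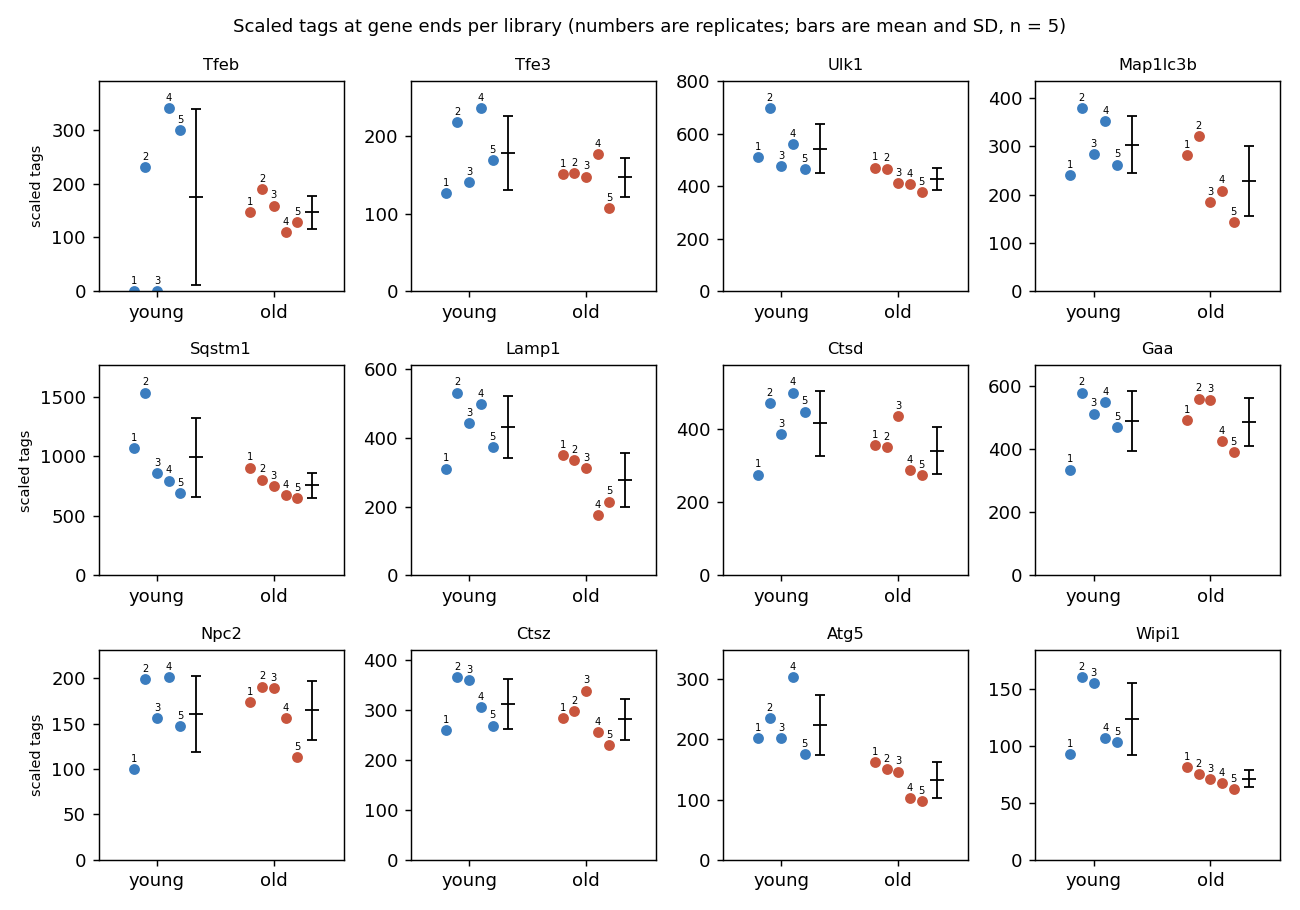
Scaled tags at the gene ends in each library for 12 members, young in blue and old in red, with replicate numbers and mean and SD (n = 5 each) beside the points. Tfeb is at 0 in young replicates 1 and 3, Wipi1 and Atg5 show no overlap between the ages, and Gaa and Npc2 have nearly equal means.

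The differences in signal ran with those in called length, with a Pearson r of 0.87 across the 35 members and 0.81 across all 7450 genes, and those in tags per kb were smaller in absolute size for 21 members and larger for 14 (medians 0.10 for tags per kb and 0.12 for signal). Signal and length come from the same regions, and genes are not replicates. For length, 0 of 35 members passed, against 0.0134% of all genes, and 5 had an unadjusted p under 0.05, or 14.3% against 7.91%. Hexa (0.46), Ctsa (0.29) and Gaa (0.24) had positive differences in length, relative to the median gene, and Nbr1 (−0.46) and Wipi1 (−0.41) negative ones, with adjusted p (limma) of 0.461 to 0.631. For tags per kb, 0 of 35 members passed, against 0% of all genes, and 1 (2.9%) had an unadjusted p under 0.05, against 8.62%. Differences per kb ranged from −0.29 (Atp6v1h) to 0.33 (Atg4b), and those of the summed signal from −0.38 to 1.07. The upper end of both ranges is set by Atg4b, and the next highest values were 0.28 per kb (Nbr1) and 0.43 for signal (Npc2). Levels per kb in young libraries ranged from 63.88 scaled tags at Tfe3 to 191.9 at Map1lc3a.

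**Figure D4:**
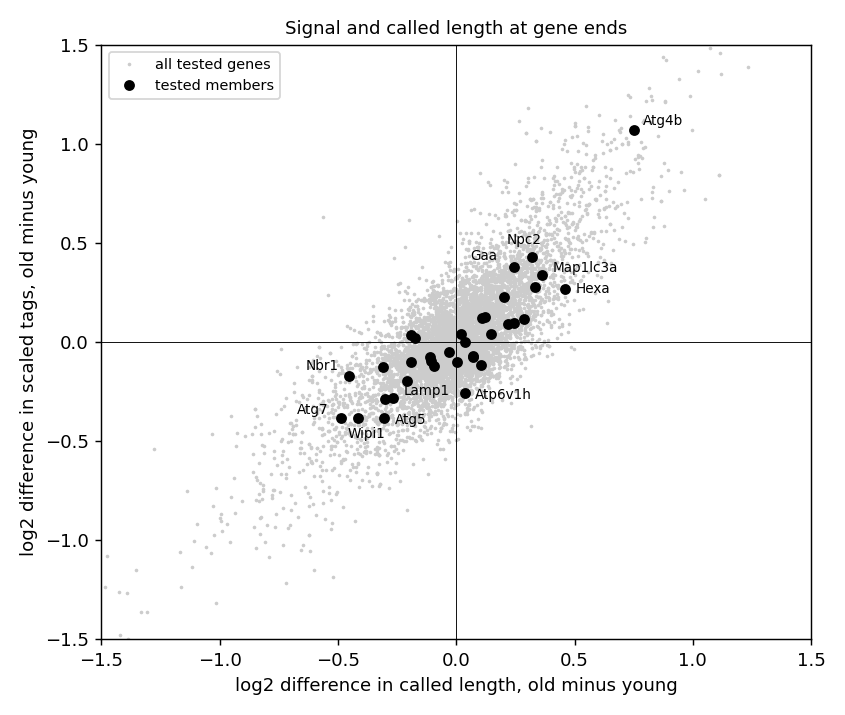
Log2 difference, old minus young, in scaled tags against that in called length at the gene ends of all tested genes (grey) and of the 35 tested members (black), both centred. The members lie within the cloud, Atg4b towards its upper right edge, and 19 genes fall outside the axes.

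Pik3c3, the gene of the lipid kinase VPS34, had much less H3K27ac in old hepatocytes at a block of regions that begins just beyond the 1 kb limit of the gene-end rule. The gene lies on chromosome 18, 30265615 to 30348126. Within 1 kb of its ends a region was called in 1 young library (replicate 4) and 0 old libraries. That region starts 998 bp from the lower end. Those of 8 other libraries overlap it in place but start further in, which left the gene outside the test. The block spanned 30266613 to 30270035, that is 998 to 4420 bp inside the lower end. The tables used here give neither a strand nor an annotated start for Pik3c3, so whether this block lies at its promoter was not determined. It held 453, 411.2, 400.5, 446.3 and 342.6 scaled tags in young and 71.7, 0, 70.4, 132.5 and 39.7 in old libraries.

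All 5 young libraries lay above all 5 old ones, with means of 410.7 ± 44.2 and 62.9 ± 48.7 (SD, n = 5 each). Young replicates 1 and 3, which were low at other members, were not low here. The sum over the whole span of Pik3c3 widened by 1 kb at each end, an alternative added after these regions had been seen, was 445.3 ± 59.79 in young and 69.16 ± 47.28 in old libraries, or 6.44-fold higher in young. The span also took in a weaker block, 6742 to 8049 bp inside the lower end, called in 4 young and 2 old libraries (means 34.5 and 6.3). The whole span value of old replicate 2, 19.8 scaled tags, came from this weaker block. Over the span the centred log2 difference was −2.59 (SE 0.44, adjusted p = 0.0383 in limma over 8838 genes), the largest in absolute size of all genes tested that way. Without old replicate 2 it was −2.17. In that test 22 genes passed (0.249%), of which 7 were lower in old libraries (0.0792%), and 1 of the 38 members passed. Because the gene drew attention by its values, this p is no independent support.

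Pik3c3 passed in tags per kb and not in called length. In tags per kb the difference was −1.41 (limma adjusted p = 0.00427), and 0.0113% of genes passed in that direction. In called length it was −1.17 (adjusted p = 0.31). With any 1 library left out the log2 difference stayed between −2.95 and −2.17, while the call was kept in 3 of 10 such fits and missed in 7, with adjusted p from 0.03 to 0.096. It was kept without young replicate 1 (0.0489), old replicate 2 (0.0319) or old replicate 4 (0.03). The call was also kept without centring (−2.94, adjusted p = 0.0354), in edgeR (0.0475) and in DESeq2 (1.13e-05), and missed with the share of tags in regions as a covariate (−2.85, 0.156), without young replicates 1 and 3 (−2.44, 0.0653) and with the replicate number as a block (−2.59, 0.0686). Across the whole span the other members gave no call, and all 38 had a median difference of −0.03, with 16 positive and 22 negative, beside 0.01 and 51.5% positive for all genes.

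**Figure D5:**
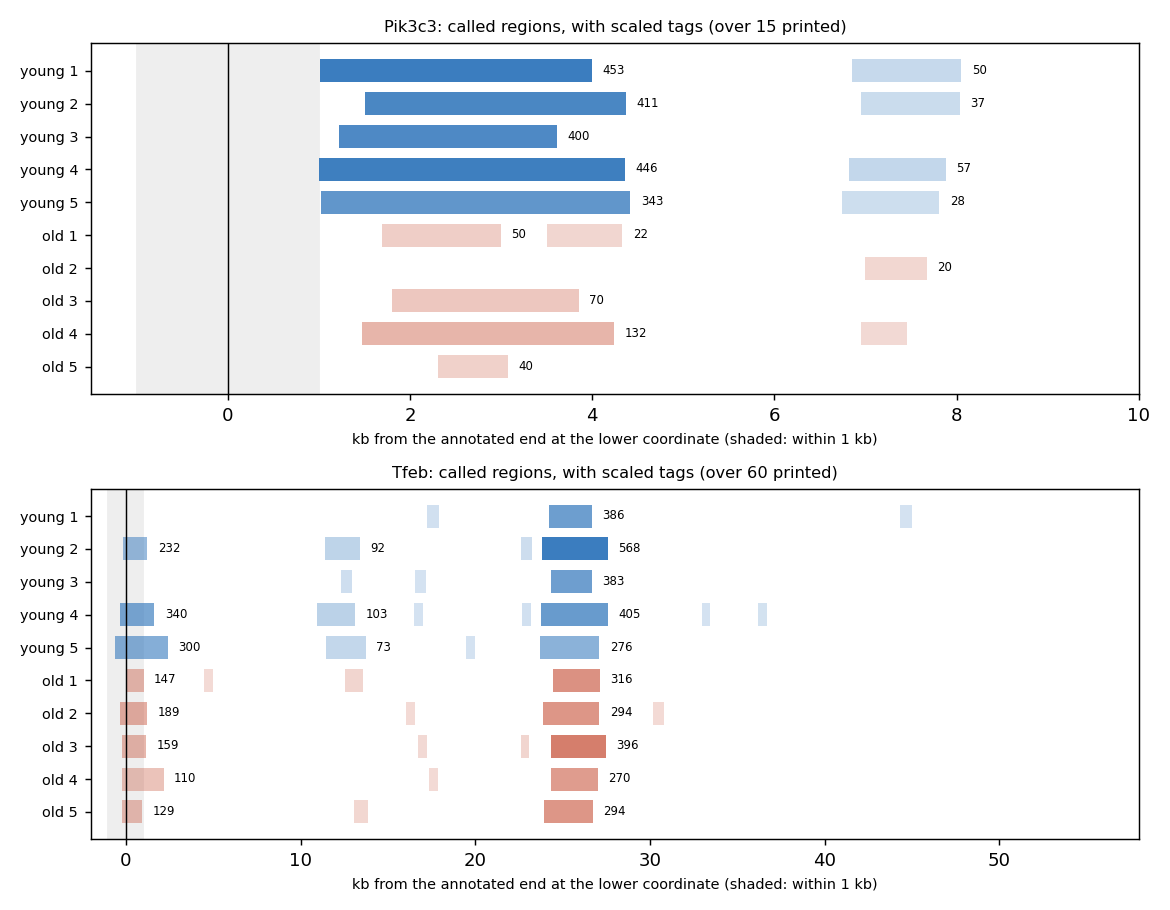
Called regions in each library at Pik3c3 (top) and Tfeb (bottom), by distance in kb from the annotated end at the lower coordinate, with darker bars for more scaled tags and larger values printed. At Pik3c3 the block from 998 to 4420 bp holds 342.6 to 453 tags in young and 0 to 132.5 in old libraries, and at Tfeb the regions at the end are missing in young replicates 1 and 3 while the inner block is called in every library.

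In 5 wider lists of related genes limma and edgeR made no call. Among the calls of DESeq2, where 2.04% of all tested genes passed, were Zfyve1 and Arsa. Zfyve1 was lower in old libraries. The difference of Arsa was positive relative to other genes, while its mean was slightly lower in old libraries. Of the other autophagy genes 28 of 32 were tested, with 0 past the threshold in limma, 6 at an unadjusted p under 0.05 (3 positive and 3 negative, 21.4%, beside 13.2% of all tested genes) and a median of 0.06. The smallest p-values belonged to Zfyve1, which encodes a protein of the sites where autophagosomes form (428.4 ± 115.2 scaled tags in young, 172.1 ± 50.08 in old, SD, n = 5 each, difference −0.94, limma adjusted p = 0.139), and to Atg16l2 (0.73, limma adjusted p = 0.228). Of the other lysosomal enzymes and membrane proteins 26 of 44 were tested, with 0 past in limma, 6 at an unadjusted p under 0.05 (4 positive and 2 negative, 23.1%) and a median of 0.03. Arsa, arylsulfatase A, had means of 397.7 ± 54.75 scaled tags (young) and 384.7 ± 39.57 (old; SD, n = 5 each), with a centred difference of 0.33 (limma adjusted p = 0.131).

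Of the other V-ATPase subunits 14 of 17 were tested, with 0 past, 1 at an unadjusted p under 0.05 (positive, 7.1%), a median of 0.00, and the smallest p-values at Atp6v1g1 (0.38, limma adjusted p = 0.257) and Atp6v0c (0.26, 0.414). Of the upstream regulators of TFEB and mTORC1, 19 of 28 were tested, with 0 past, 2 at an unadjusted p under 0.05 (both negative, 10.5%) and a median of −0.02. Fnip2, a partner of folliculin, had −0.37 (limma adjusted p = 0.198), and Prkaa2, a catalytic subunit of AMPK, −0.30 (0.377). All 8 mitophagy genes were tested, with 0 past, 1 at an unadjusted p under 0.05 (positive, 12.5%) and a median of 0.07. Pink1, a kinase that marks damaged mitochondria, had 0.24 (limma adjusted p = 0.386). Genes without a region in every library were not tested.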

How the data were processed

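Regions had been called with HOMER, in its histone mode per the file headers, with each library set against its own input, at 4-fold over input and 4-fold over the local 10000 bp. Per the submitters' processing notes the build was mm10. Neither an aligner nor a HOMER version is given in the sources used here. Per region, the signal, its tags scaled by the authors to 10000000 per library, was summed over regions within 1 kb of either end of a gene. The deposited unscaled tags per region, in steps of 0.5, were treated like estimated counts (expected counts) and rounded for edgeR 4.0.16 and DESeq2 1.42.0. The input tags are a signal scaled by the authors, the fold over input a ratio given by the authors, and the score per region, per the file headers HOMER's own, served for a filter only. The region length is an other unit in bp that the authors deposited.

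Genes were RefSeq protein-coding genes of GRCm38.p6, to which mm10 corresponds. Log2 of scaled tags plus 1, of length and of tags per kb plus 1 was centred on each library's median tested gene and tested with limma 3.58.1 (mean-dependent prior, 5 against 5, no covariate), adjusted over all genes with a region in all 10 libraries. Log2 differences are old minus young. The added 1 makes those of weak regions smaller, and a region called only in part can move them either way. At Atg4b the called length was 809 and 500 bp in young replicates 1 and 3 and at least 1948 bp in the other libraries. Of the 35 tested members 12 had regions that were also assigned to a neighbouring gene in at least 5 libraries. These were Atg13, Atg9a, Atg3, Atg4b, Atg12, Map1lc3a, Gabarap, Sqstm1, Nbr1, Ctsa, Hexa and Npc2. Of all tested genes, 32.7% shared a region in all 10 libraries, a stricter rule, so the 2 figures are not directly comparable. A gene without a call may still carry signal below the calling threshold. Values of every library are given for members past the threshold, and otherwise for 12 members: Tfeb, Tfe3, Sqstm1, Map1lc3b, Lamp1, Ctsd, Ulk1 and the 5 others with the smallest p. Becn1 and Atg4b were added after their values were seen. Of each wider list the genes past the threshold, or else the 2 with the smallest p, are named, except for some that are not reported here. The members and lists were chosen with earlier results of these data known. The steps were tested on simulated data. R 4.3.3, Python 3.11.15, pandas 2.3.3, numpy 2.4.6 and matplotlib 3.10.9 were used.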

Additional observations from a re-analysis of the deposited data

Results flagged for a closer look

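In each member and age the library farthest from the others was compared with the range of the group of 5. Of 70 such groups 4 had a gap above 0.71 of the range, where 3.5 are expected at a rate of 1 in 20. Atg9a had 154.1 scaled tags in old replicate 5, against 296.1 to 344.7 in the other old libraries. Atg7 had 119.1 in old replicate 5, against 160.6 to 174.8. Wipi2 had 129.4 in young replicate 3, against 276 to 326.2 in the other young libraries. Gabarapl1 was high in young replicate 1, with 635.3 against 408.5 to 466.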

How the results depend on the processing

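The count of 0 members past the threshold held under the alternatives run, except for 7 without centring, 1 in DESeq2 (Gaa) and 1 over the whole gene span (Pik3c3). The count of all genes, 5, was 881 without centring, 152 in DESeq2, 9 in edgeR with TMM, 0 for tags per kb, 3 without the 0.25 of regions with the lowest scores (where 8 members could be tested), 15 at 0 kb, 2 at 5 kb, 13 at annotated starts only, 9 for the strongest region, 1 with the share of tags in regions as covariate, 40 without young replicates 1 and 3 and 22 over the gene span. The last 2 alternatives were added after seeing the data. Leaving out 1 library gave 3 (without young replicate 2, or old replicate 4 or 5) to 17 genes (without young replicate 1), with 8 without young replicate 5 and 9 without old replicate 1, and 0 members each time. The members' median of −0.05 was −0.43 without centring, 0.01 for tags per kb and −0.06 to −0.00 with 1 library left out (−0.056 to −0.001). The count for length, 1, was 5 without centring and 1 to 5 with 1 library left out, and that for tags per kb, 0, was 0 to 2. The cause of these moves was not tested.

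Correlations between same-numbered libraries, as deviations from the mean of their age, were −0.051 to 0.139, and 2 of 5 young libraries correlated best with their own number. Such correlations cannot show whether same-numbered libraries were processed as pairs. With the replicate number as a block, 1 gene was called for signal, 0 for length and 1 for tags per kb, 0 members for signal, and Pik3c3 over its span had an adjusted p of 0.0686. In 8 of 35 members the sign of the difference was the same in every alternative (Uvrag, Atg3, Atg4b, Atg5, Atg16l1, Lamp1, Npc2 and Atp6v1h), 14 members had the opposite sign without centring, where Gaa was at 0.00, and 23 kept theirs with any 1 library left out. A region under the calling threshold counts as absent. Young replicate 4, with 7617760 tags, had 0.74% of genes low or not called, and young replicate 1, with 8830854 tags, had 19.1%. In old replicate 5, with the fewest tags (6295930), the share was 8.25%. The part of depth in these shares was not tested.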
